A study of Oryctolagus cuniculus with 134 samples.

Results

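Apolipoprotein D (APOD, ENSOCUG00000023599) is 1 of the 29587 genes counted in the aorta and the 4 heart valves of rabbits on different diets, and 1 of the 14716 that carry a symbol in the deposited tables. It was chosen by its measured levels in these libraries, across tissues and treatments, and by its relation to other genes over them. Its levels, fold changes and correlations are therefore given as a description, without a test.

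APOD is a small secreted lipocalin, a barrel-shaped carrier of hydrophobic molecules such as arachidonic acid and steroid hormones. It travels in plasma mainly on high-density lipoprotein, and in tissues it is made by fibroblasts and by glia, among other cells. Its expression is known to rise with oxidative stress, growth arrest and ageing, and it can reduce lipid hydroperoxides.

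All rabbits were male New Zealand White animals, 12 weeks old when the protocols began, and tissues were taken 16 weeks later. The Ctrl group ate chow and received no vitamin D2, the CHT group ate a diet with 0.3% cholesterol, the Lard group a diet with 5% lard, and the IR/CHT group the 0.3% cholesterol diet together with X-ray irradiation aimed at the aortic valve and thoracic aorta. The dose was 24 Gy, given as 3 fractions of 8 Gy after 8 weeks of diet. CHT, Lard and IR/CHT rabbits all drank vitamin D2 for the first 15 days, at 25000 U per day for each 2.5 kg, so a comparison of any of them with Ctrl also holds vitamin D2, and no vitamin D2 or irradiation group without a lipid diet was analysed here. Each library came from 1 tissue of 1 rabbit, with 6 or 7 rabbits per group, and 27 rabbits in all.

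The libraries held 13564979 to 50577676 gene counts each, with a median of 18235577. APOD itself had 118 to 51948 counts per library, so that counting error was at most 9.21% of a value. Levels are given below as CPM, the counts relative to library totals scaled by edgeR's TMM method, and they are not divided by gene length. The counts came as 2 plates: the aorta was entirely on plate 2, and mitral and aortic valve CHT libraries were entirely on plate 1. Fibroblast, endothelial and smooth muscle markers were detected in all 5 tissues, but 5 right-sided valve libraries and IR/CHT aorta L566 stood apart in their markers. The endothelial marker sum was 100.9 CPM in IR/CHT pulmonary valve L275, 397 CPM in Ctrl tricuspid valve L168, and 454 and 336 CPM in IR/CHT tricuspid valves L197 and L276, and the smooth muscle sum was 19654 CPM in IR/CHT pulmonary valve L176. The main APOD values are also given without them. The 5 were picked among right-sided valves alone, and the endothelial sum was lower in many left-sided libraries, from 63.6 CPM in IR/CHT aortic valve L178, the library of lowest APOD in its group, to 721 CPM in the aortic valve and from 87.9 to 1395 CPM in the mitral valve.

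**Figure D1:**
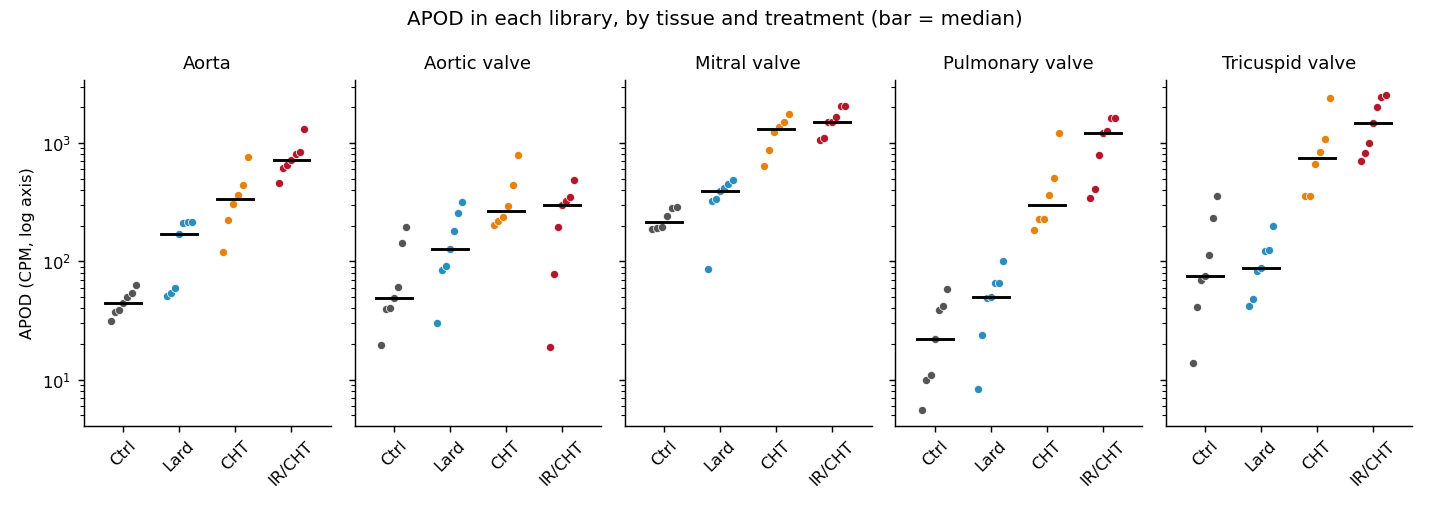
APOD level in CPM on a log axis in every library, by tissue and treatment, with a bar at each group's median. The CHT points sit above the Ctrl points in every tissue, although the nearest of them almost meet in the tricuspid valve. The IR/CHT points sit above the Ctrl points in all but the aortic valve, where the IR/CHT points run from 19.0 to 490 CPM.

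The highest group median was that of the IR/CHT mitral valve, at 1504 CPM, and the lowest that of the Ctrl pulmonary valve, at 21.9 CPM. From the highest median down, the order was IR/CHT mitral valve, IR/CHT tricuspid valve, CHT mitral valve, IR/CHT pulmonary valve, CHT tricuspid valve, IR/CHT aorta, Lard mitral valve, CHT aorta, IR/CHT aortic valve, CHT pulmonary valve, CHT aortic valve, Ctrl mitral valve, Lard aorta, Lard aortic valve, Lard tricuspid valve, Ctrl tricuspid valve, Lard pulmonary valve, Ctrl aortic valve, Ctrl aorta and Ctrl pulmonary valve. Each of the 19 pairs of neighbours in this order had overlapping ranges. Under chow, the mitral valve stood above the aorta and the pulmonary valve without overlap.

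In the aorta, APOD was lowest under chow and highest in the irradiated cholesterol-fed rabbits. The Ctrl libraries held 31.0, 44.1 and 63.1 CPM (lowest, median and highest; mean 45.4 ± 10.9 SD, n = 7). Those of Lard held 50.6, 171.9 and 215 CPM (140 ± 80.8, n = 7), with 3 libraries between 50.6 and 59.7 CPM and 4 between 171.9 and 215 CPM. In CHT the values were 121, 334 and 766 CPM (370 ± 224, n = 6). In IR/CHT they were 456, 719 and 1322 CPM (773 ± 273.9, n = 7). The CHT and the IR/CHT libraries lay above every Ctrl library, the Lard libraries overlapped with Ctrl, and IR/CHT overlapped with CHT. The log2 fold change against Ctrl was 3.05 (SE 0.40) in CHT, 1.63 (SE 0.37) in Lard and 4.14 (SE 0.41) in IR/CHT. These 3 values share the Ctrl libraries. Directly compared, IR/CHT stood 1.09 (SE 0.38) above CHT, and CHT 1.42 (SE 0.38) above Lard.

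Many other aortic genes moved in the same comparisons. Of the 14777 genes tested with edgeR's quasi-likelihood test, 19.4% were called (adjusted p under 0.05 and a fold change over 1.5) in CHT against Ctrl, 2.61% in Lard against Ctrl, 34.3% in IR/CHT against Ctrl, 0.596% in IR/CHT against CHT and 9.35% in CHT against Lard. APOD ranked 550, 498, 413, 795 and 796 from the top by log2 fold change in these comparisons. The 14 macrophage markers moved with it: 12 were higher in CHT, 7 in Lard and 14 in IR/CHT than in Ctrl, and CD68, a lysosomal glycoprotein of macrophages, rose by 4.19 (SE 0.43) in CHT on the log2 scale (edgeR adjusted p = 3.79e-08). The markers' summed level ranged over 75.1 to 315 CPM in Ctrl, 207 to 551.7 CPM in Lard, 537 to 1383 CPM in CHT and 834 to 2814 CPM in IR/CHT. Of 18 fibroblast markers, 2 were higher and 2 lower in CHT and 3 higher and 2 lower in IR/CHT, and 7 of 8 endothelial markers were higher in each. Smooth muscle markers were lower, 3 of 6 in CHT and 5 of 6 in IR/CHT, and their summed level ran from 81778 to 115683 CPM in Ctrl and from 11594 to 61000 CPM in IR/CHT without overlap. Of 9 Schwann cell and glia markers, 1 was higher and 1 lower in IR/CHT than in Ctrl, and their sum ran from 649.97 to 876 CPM in Ctrl and from 217.98 to 626 CPM in IR/CHT without overlap. Of 7 heart muscle markers, 4 were higher and 1 lower in IR/CHT than in Ctrl, and 4 were higher in IR/CHT than in CHT. In CHT 1 was lower than in Ctrl. Their sum was 3022 CPM in IR/CHT aorta L566, also the library of lowest smooth muscle sum, and 184.2 to 691 CPM in the other 6. In Ctrl this sum ran from 536.9 to 769.2 CPM. Its median was lower in both cholesterol-fed groups, at 686.4 CPM in Ctrl, 338.7 CPM in CHT and 329.7 CPM in IR/CHT. Without L566, APOD in IR/CHT stood 4.12 above Ctrl and 1.07 above CHT. The part of these cell types in the APOD level was not tested, and in bulk tissue a change in the number of cells of a type cannot be told apart from a change in RNA per cell.

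In the aortic valve, APOD was higher in CHT than in Ctrl, and the IR/CHT mean lay below that of CHT although its median lay above. Lowest, median and highest values were 19.5, 49.3 and 194.6 CPM in Ctrl (78.1 ± 64.8, n = 7) and 30.3, 128 and 318 CPM in Lard (155.1 ± 102, n = 7). In CHT they were 202, 264.5 and 798 CPM (365 ± 229.2, n = 6). In IR/CHT they were 19.0, 301 and 490 CPM (250.8 ± 164, n = 7). All CHT libraries lay above all Ctrl libraries, whereas IR/CHT spanned both groups, with 5 libraries above every Ctrl library and 1 below every Ctrl library. The log2 fold change against Ctrl was 2.22 (SE 0.60) in CHT, 0.98 (SE 0.57) in Lard and 1.67 (SE 0.58) in IR/CHT. IR/CHT differed from CHT by -0.56 (SE 0.58), and by -0.35 without L178, the IR/CHT library at 19.0 CPM. CHT stood 1.24 (SE 0.59) above Lard. The 4 IR/CHT libraries of plate 1 averaged 148 CPM and the 3 of plate 2 averaged 388 CPM, and the CHT libraries were all on plate 1, where IR/CHT differed from CHT by -1.35 and from Ctrl by 0.81. On plate 2 IR/CHT stood 2.36 above Ctrl.

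Of 15408 genes tested in the aortic valve, 11.9% were called in CHT against Ctrl, 0.234% in Lard against Ctrl, 42.8% in IR/CHT against Ctrl, 19.7% in IR/CHT against CHT and 7.94% in CHT against Lard. APOD ranked 444 from the top by log2 fold change in CHT against Ctrl, 1444 in IR/CHT against Ctrl and 12304 in IR/CHT against CHT. Of 14 macrophage markers, 7 were higher in CHT and 12 in IR/CHT than in Ctrl, and 10 were higher in IR/CHT than in CHT. Their summed level ran from 930 to 1400 CPM in CHT and from 2575 to 3321 CPM in IR/CHT without overlap, while the APOD ranges of the same groups overlapped. Of 18 fibroblast markers, 12 were lower and 1 higher in IR/CHT than in Ctrl, and 8 were lower in IR/CHT than in CHT. DCN, the collagen-binding proteoglycan decorin, fell by 1.96 on the log2 scale (SE 0.40, edgeR adjusted p = 0.000233). All 6 Schwann cell and glia markers tested were lower in IR/CHT than in Ctrl by edgeR, and their summed level ran from 632 to 977 CPM in Ctrl and from 127 to 293 CPM in IR/CHT. Of 8 heart muscle markers, 7 were lower in CHT, 5 in Lard and 7 in IR/CHT than in Ctrl, and the median of their sum was 806 CPM in Ctrl, 63.7 CPM in CHT, 76.4 CPM in Lard and 65.7 CPM in IR/CHT. Of 6 smooth muscle markers 2 were higher and 4 lower, and all 3 adipocyte markers tested were lower, in IR/CHT against Ctrl by edgeR. The part of these markers' cells in the APOD level was not tested.

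The mitral valve had the highest APOD median of the 5 tissues in Ctrl, Lard, CHT and IR/CHT alike, with ranges that overlapped with those of the tricuspid valve. Among rabbits with all 5 tissues it was the highest of the 5 in 4 of 6 Ctrl, 6 of 7 Lard, 4 of 6 CHT and 4 of 7 IR/CHT rabbits, and the IR/CHT mean of the tricuspid valve was the higher one. The 6 Ctrl libraries were close together, at 186.96, 217 and 290 CPM (230.9 ± 47.5), and the Lard libraries held 85.5, 394 and 485 CPM (356 ± 133, n = 7). CHT values were 643, 1310 and 1749 CPM (1229 ± 408, n = 6). IR/CHT values were 1053, 1504 and 2068 CPM (1561 ± 405, n = 7). The CHT and IR/CHT libraries lay above every Ctrl and every Lard library, and overlapped with each other. Of the Lard libraries, 6 lay above all Ctrl libraries and 1 below them. The log2 fold change against Ctrl was 2.40 (SE 0.30) in CHT, 0.62 (SE 0.27) in Lard and 2.73 (SE 0.29) in IR/CHT, with 0.33 (SE 0.27) for IR/CHT against CHT and 1.78 (SE 0.27) for CHT against Lard. Within plate 1 the values were 2.36 for CHT and 2.61 for IR/CHT against Ctrl.

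Among 15322 genes tested in the mitral valve, 5.62% were called in CHT against Ctrl, 0.0% in Lard against Ctrl, 17.7% in IR/CHT against Ctrl, 0.189% in IR/CHT against CHT and 6.05% in CHT against Lard. For Lard against Ctrl, edgeR called 0 genes, 253 genes had an unadjusted p under 0.05, and DESeq2 called 0. APOD ranked 334 from the top by log2 fold change in IR/CHT against Ctrl and 2976 in IR/CHT against CHT. Of 14 macrophage markers, 10 were higher in CHT and 11 in IR/CHT than in Ctrl, CD68 by 2.65 (SE 0.34, edgeR adjusted p = 7.59e-06) in CHT. Of the 18 fibroblast markers, 2 were lower in CHT and 6 in IR/CHT, and DCN fell by 1.32 on the log2 scale in IR/CHT (SE 0.19, edgeR adjusted p = 1.19e-05). Of 8 Schwann cell and glia markers tested, 5 were lower in IR/CHT than in Ctrl, and their sum ran from 568.9 to 887 CPM in Ctrl and from 250.9 to 443 CPM in IR/CHT without overlap. Of 5 adipocyte markers, 3 were lower. Of 6 smooth muscle markers, 2 were higher in CHT and 2 in IR/CHT than in Ctrl, and their sum ran from 161.9 to 427 CPM in Ctrl and from 480 to 1369 CPM in CHT without overlap. The part of these cells in the APOD level was not tested.

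In the pulmonary valve, APOD had its lowest Ctrl median and its largest fold changes of CHT and IR/CHT against Ctrl. The Ctrl libraries held 5.54, 21.9 and 58.2 CPM (26.8 ± 19.9, n = 7) and the Lard libraries 8.37, 50.3 and 100.4 CPM (51.9 ± 30.1, n = 7). CHT values were 184.4, 297 and 1219 CPM (455 ± 393, n = 6). IR/CHT values were 344, 1204 and 1625 CPM (1034 ± 531, n = 7). Every CHT and IR/CHT library lay above every Ctrl and Lard library, IR/CHT overlapped with CHT, and Lard overlapped with Ctrl. The log2 fold change against Ctrl was 4.07 (SE 0.63) in CHT, 0.94 (SE 0.55) in Lard and 5.27 (SE 0.65) in IR/CHT. CHT stood 3.13 (SE 0.60) above Lard, and IR/CHT 1.20 (SE 0.58) above CHT. Without IR/CHT libraries L176 and L275, the IR/CHT values were 5.16 against Ctrl and 1.09 against CHT, and the IR/CHT mean was 957 ± 630 CPM (n = 5). Without the highest CHT library, L188, CHT stood 3.47 above Ctrl and IR/CHT 1.80 above CHT.

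Within plates, CHT stood 4.13 above Ctrl on plate 1 and 4.22 on plate 2 in the pulmonary valve, and IR/CHT stood 4.71 and 7.12 above Ctrl. The Ctrl mean was 33.3 CPM in the 5 libraries of plate 1 and 10.5 CPM in the 2 of plate 2. Lard against Ctrl was -0.30 on plate 1 and 2.73 on plate 2, and CHT against Lard was 4.42 and 1.48. The plates hold different rabbits, few per group, and with plate as a covariate CHT stood 4.07, Lard 0.97 and IR/CHT 5.28 above Ctrl, close to the values without it.

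Of 14450 genes tested in the pulmonary valve, 0.159% were called in CHT against Ctrl, 0.0% in Lard against Ctrl, 0.706% in IR/CHT against Ctrl, 0.0761% in IR/CHT against CHT and 0.152% in CHT against Lard. Without L176 and L275, 41 genes in place of 23 were called in CHT against Ctrl, 37 in place of 22 in CHT against Lard and 5 in place of 11 in IR/CHT against CHT. An unadjusted p under 0.05 was reached by 1441 genes in CHT against Ctrl, 2207 in IR/CHT against Ctrl and 3539 in IR/CHT against CHT, where DESeq2 called 115, 318 and 466 and edgeR 23, 102 and 11. In Lard against Ctrl edgeR called 0 genes, 360 had an unadjusted p under 0.05, and DESeq2 called 1. APOD ranked 3 from the top by log2 fold change in CHT and in IR/CHT against Ctrl, and 4 in CHT against Lard. The genes above it, named after their values were seen, were TIMD4, a phosphatidylserine receptor of resident macrophages, and a gene without a symbol in CHT, and TIMD4 and MMP12, the macrophage elastase, in IR/CHT. Against Ctrl, 3 of the 14 macrophage markers were higher in IR/CHT. CD68 was 0.25 (SE 0.16) higher in CHT and 0.55 (SE 0.15, edgeR adjusted p = 0.0776) in IR/CHT on the log2 scale, without passing the test. The macrophage sum ranged over 568.5 to 726 CPM in Ctrl, 527 to 822 CPM in CHT and 288 to 926 CPM in IR/CHT. The lowest of these was L275, and the other 6 IR/CHT libraries, at 737.8 to 926 CPM, lay above every Ctrl library. The fibroblast sum ranged over 16221 to 20917 CPM in Ctrl and 17103 to 24367 CPM in IR/CHT. The heart muscle sum ran from 15.4 to 53.3 CPM in CHT and from 64.1 to 1732 CPM in IR/CHT without overlap. In Ctrl it ran from 38.5 to 5595 CPM and in Lard from 19.3 to 3546 CPM. The part of these cells in the APOD level was not tested.

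In the tricuspid valve too, APOD was higher in both cholesterol-fed groups than in Ctrl and Lard. The Ctrl libraries ranged widely, at 13.8, 74.8 and 356 CPM (129 ± 122, n = 7), and the Lard libraries held 42.3, 87.3 and 199.98 CPM (100.97 ± 54.0, n = 7). CHT values were 356, 751 and 2406 CPM (951 ± 766, n = 6). IR/CHT values were 710, 1468 and 2523 CPM (1569 ± 768, n = 7). CHT and IR/CHT lay above Ctrl and Lard without overlap, although the lowest CHT and the highest Ctrl library nearly met at 356 CPM. On raw totals CHT and Ctrl overlapped, as CHT library L231 had 6614 APOD counts of 20141076 and the highest Ctrl library 6219 of 14866435. That Ctrl library was L168, 1 of the 5 right-sided valve libraries that stood apart, and its fibroblast marker sum was 31153 CPM. The log2 fold change against Ctrl was 2.82 (SE 0.59) in CHT, -0.42 (SE 0.54) in Lard and 3.55 (SE 0.60) in IR/CHT, with 3.24 (SE 0.60) for CHT against Lard and 0.73 (SE 0.57) for IR/CHT against CHT. Without L168, L197 and L276, CHT stood 3.40, Lard 0.16 and IR/CHT 3.83 above Ctrl and IR/CHT 0.43 above CHT. The Ctrl mean was then 90.8 ± 77.1 CPM (n = 6) and the IR/CHT mean 1303 ± 741 CPM (n = 5).

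On plate 1 of the tricuspid valve CHT stood 3.57 above Ctrl and on plate 2 1.38, while IR/CHT stood 3.38 and 3.39 above Ctrl. IR/CHT against CHT was -0.19 on plate 1 and 2.01 on plate 2, and the IR/CHT means were 998 CPM (n = 4) and 2331 CPM (n = 3). With plate as a covariate, CHT stood 2.93 and IR/CHT 3.49 above Ctrl and IR/CHT 0.56 above CHT.

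Of 14700 genes tested in the tricuspid valve, 0.163% were called in CHT against Ctrl, 0.0% in Lard against Ctrl, 0.231% in IR/CHT against Ctrl, 0.0% in IR/CHT against CHT and 0.0884% in CHT against Lard. In the comparisons with 0 edgeR calls, 1200 genes had an unadjusted p under 0.05 in Lard against Ctrl and 1323 in IR/CHT against CHT, and DESeq2 called 0 and 9. APOD ranked 5 from the top in CHT and 3 in IR/CHT against Ctrl, and 4 in CHT against Lard. Above it, named after their values were seen, were TIMD4, LIPG, U1 and a gene without a symbol in CHT, and LIPG, the endothelial lipase that acts on high-density lipoprotein, and TIMD4 in IR/CHT. Leaving out L168 raised the number of genes called in IR/CHT against Ctrl from 34 to 985, and without L168, L197 and L276 1.21% of genes were called there, 41 genes in place of 24 in CHT against Ctrl. Of 13 macrophage markers tested, 2 were higher in IR/CHT than in Ctrl, and CD68 was 0.80 higher (SE 0.19, edgeR adjusted p = 0.0895), short of the threshold. The macrophage sum overlapped between Ctrl, at 567.6 to 792 CPM, and IR/CHT, at 488 to 992 CPM, but its 2 lowest IR/CHT libraries were L276 and L197, and the other 5 ran from 791.4 CPM, just under the highest Ctrl library, upward. Its part in the APOD level was not tested.

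**Figure D2:**
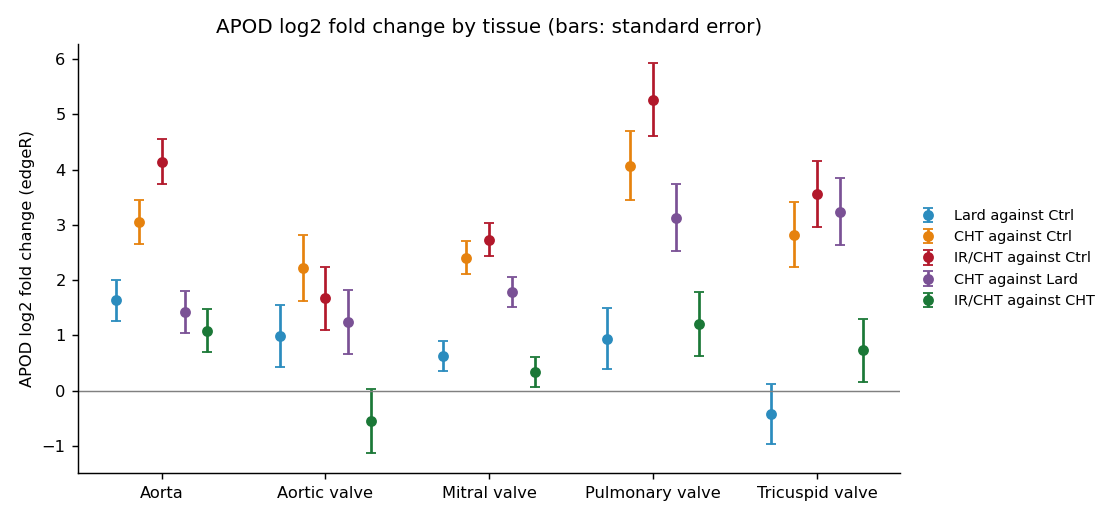
APOD log2 fold change from the edgeR fit of each tissue, with bars of 1 standard error, for the 5 comparisons. Values against Ctrl run from 2.22 to 4.07 in CHT and from 1.67 to 5.27 in IR/CHT, and from -0.42 to 1.63 in Lard.

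Side by side, CHT lay above Ctrl without overlap in all 5 tissues on TMM-scaled totals, but only barely in the tricuspid valve, where raw totals overlapped. IR/CHT lay above Ctrl without overlap in the 4 tissues other than the aortic valve. The ratio of mean CPM was 8.15, 4.67, 5.32, 17.0 and 7.39 for CHT and 17.0, 3.21, 6.76, 38.7 and 12.2 for IR/CHT in the aorta, aortic, mitral, pulmonary and tricuspid valves. For Lard against Ctrl the ratios were 3.07, 1.98, 1.54, 1.94 and 0.78, with overlap in all 5 tissues. CHT against Lard, in which both groups had vitamin D2, gave 2.65 (aorta) and 2.35 (aortic valve) with overlap, and 3.45, 8.78 and 9.42 in the mitral, pulmonary and tricuspid valves without. IR/CHT overlapped with CHT in all 5 tissues, at ratios of 2.09, 0.69, 1.27, 2.27 and 1.65. The comparisons with Ctrl share the same Ctrl libraries, and the tissues share the same rabbits.

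Libraries of 1 group differed in APOD more than in most genes. The SD of log2 CPM within groups was 0.98 for APOD, against a median of 0.55 over 17030 genes, which put APOD at the 89.3 percentile. The highest library was 1.55-fold above the lowest in the Ctrl mitral valve and 25.8-fold in the IR/CHT aortic valve.

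**Figure D3:**
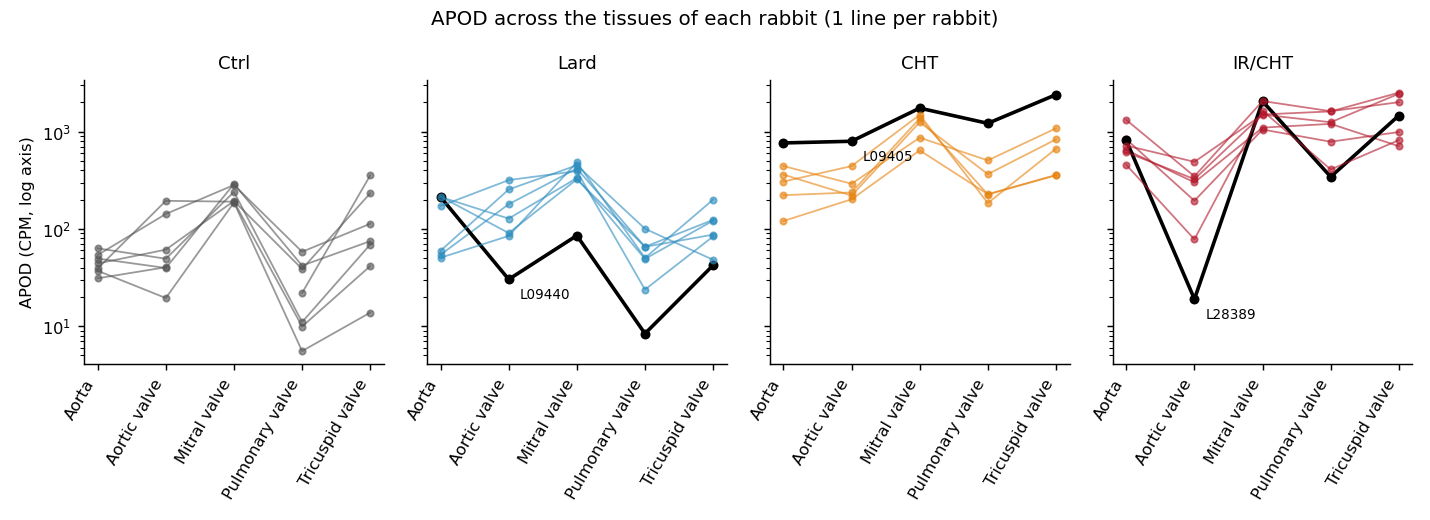
APOD level in CPM on a log axis across the tissues, with 1 line per rabbit and 1 panel per treatment, broken where a rabbit has no mitral valve library. CHT rabbit L09405 is the highest of 6 in all 5 tissues, and IR/CHT rabbit L28389 drops to 19.0 CPM in the aortic valve.

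Some rabbits held the same place in their group in several tissues. CHT rabbit L09405 held 766, 798, 1749, 1219 and 2406 CPM in the aorta, aortic, mitral, pulmonary and tricuspid valves and ranked first of the 6 CHT rabbits in each. Ctrl rabbit L08719 had the lowest level of its group in all 4 valves, at 19.5, 186.96, 5.54 and 13.8 CPM, with 37.1 CPM in its aorta. Lard rabbit L09440 was lowest of 7 in the 4 valves, at 30.3, 85.5, 8.37 and 42.3 CPM, but had the third highest aorta, at 213 CPM. The mitral valve of IR/CHT rabbit L28389 held 2055 CPM, 108-fold the 19.0 CPM of its aortic valve.

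Between tissues of the same rabbit, after the mean of each tissue and treatment was removed, Pearson's r of log2 APOD was 0.62 for the pulmonary and tricuspid valves (Spearman's rho 0.59, n = 27 rabbits). It was 0.49 without the 2 rabbits farthest out in the pulmonary valve. With all rabbits, r was 0.59 (rho 0.48) for the aortic and pulmonary valves, 0.49 (rho 0.35, n = 26) for the mitral and pulmonary valves and 0.41 (rho 0.34, n = 26) for the mitral and tricuspid valves. Without the 2 rabbits farthest out in the first-named valve these were 0.43, 0.23 and 0.29. Rabbits far out in the second valve alone were kept. For the aortic and mitral valves r was 0.30 (rho 0.17, n = 26), below the median of 0.49 over all genes at the 26.5 percentile, and for the aortic and tricuspid valves 0.25 (rho 0.24) at the 62.4 percentile. With the aorta, r was between -0.08 and 0.24. Without the 2 rabbits farthest out in the aorta it was between -0.37 (mitral valve) and 0.05 (tricuspid valve), turning from 0.08 to -0.06 with the aortic and from 0.08 to -0.11 with the pulmonary valve. The median r over all genes was 0.26 for the pulmonary and tricuspid pair and 0.10 for the aortic and pulmonary pair, in which APOD stood at the 93.1 and 95.8 percentile of genes. The points of each pair share the rabbit, its plate in part and the same treatment means, and 10 tissue pairs were computed.

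Levels were also set side by side within a rabbit. Among rabbits with all 5 tissues, the tricuspid valve held more APOD than the pulmonary valve in 6 of 6 Ctrl, 6 of 7 Lard, 6 of 6 CHT and 6 of 7 IR/CHT rabbits. The mitral valve held more than the aortic valve in 5 of 6, 7 of 7, 6 of 6 and 7 of 7, at a median of 4.02, 2.61, 3.28 and 5.40 times. The aortic valve held more than the aorta in 3 of 6 Ctrl, 4 of 7 Lard and 4 of 6 CHT rabbits and in 0 of 7 IR/CHT rabbits. In IR/CHT the aortic valve was the lowest of the 5 tissues in 7 of 7 rabbits.

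**Figure D4:**
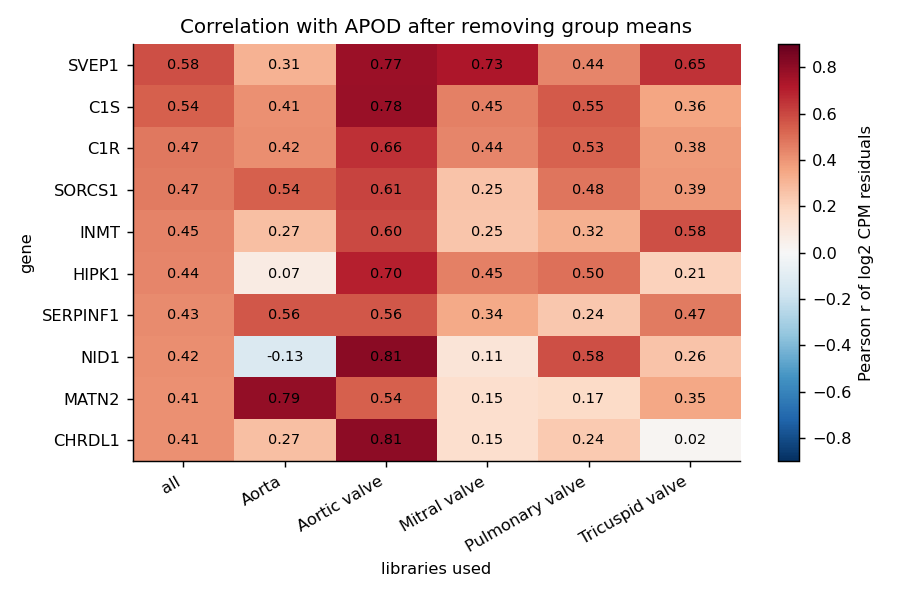
Pearson correlation with APOD of log2 CPM after removing group means, for the 10 genes with the highest value over all libraries, in all libraries and within each tissue. SVEP1 leads at 0.58 over all libraries, and MATN2 reaches 0.79 in the aorta, where NID1 is at -0.13.

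The 10 genes with a symbol whose residuals ran closest to those of APOD were compared with it library by library, and 14 genes reached as high an r when those without a symbol were counted. Over all libraries, with the means of the 20 groups removed, the highest Pearson r was that of SVEP1, a large extracellular adhesion protein, at 0.58 (rho 0.54). C1S and C1R, the serine proteases that start the classical complement pathway, followed at 0.54 (rho 0.50) and 0.47 (rho 0.49). SORCS1, a sorting receptor of neurons, was at 0.47 (rho 0.43), INMT, an indolethylamine methyltransferase, at 0.45 (rho 0.36), and HIPK1, a nuclear kinase, at 0.44 (rho 0.39). SERPINF1, the secreted factor PEDF, was at 0.43 (rho 0.44), NID1, the basement membrane protein nidogen, at 0.42 (rho 0.36), MATN2, a matrix adaptor, at 0.41 (rho 0.37), and CHRDL1, a secreted BMP antagonist, at 0.41 (rho 0.38). Over all genes, the 5th and 95th percentile of r were -0.15 and 0.18. Without the 2 libraries farthest from their group mean, IR/CHT aortic valve L178 and Ctrl tricuspid valve L264, the r of these 10 genes was between 0.33 and 0.53.

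The relation was not even across tissues. For SVEP1, r was 0.31, 0.77, 0.73, 0.44 and 0.65 in the aorta, aortic, mitral, pulmonary and tricuspid valves, and 0.65 and 0.46 on plates 1 and 2. For C1S it was 0.41, 0.78, 0.45, 0.55 and 0.36. For MATN2 it was 0.05 on plate 1 and 0.60 on plate 2. The lowest r were those of PPM1L, a protein phosphatase, at -0.36, the splicing factors CD2BP2 at -0.35 and CTNNBL1 at -0.35, CYB5R1 at -0.33 and BBS9, a ciliary protein, at -0.32. The points share libraries, depth and rabbits.

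Over the 20 group means, r with APOD was -0.25 for SVEP1 and -0.47 for SORCS1, against 0.83 for C1S and 0.77 for C1R. In the aortic valve SVEP1 fell by 1.35 on the log2 scale in IR/CHT against Ctrl (SE 0.35, edgeR adjusted p = 0.00248), from 168.3 ± 98.4 to 66.5 ± 30.5 CPM. CHRDL1, HIPK1, MATN2, NID1 and SORCS1 were also lower there, and SERPINF1 was higher, in a comparison in which 42.8% of all genes were called. Against CHT, 6 of the 10 were lower in the IR/CHT aortic valve, C1R, C1S, CHRDL1, HIPK1, MATN2 and SVEP1, beside 19.7% of all genes called, and C1R and SERPINF1 were higher in CHT than in Ctrl, beside 11.9%. In the aorta C1R and C1S were higher than in Ctrl in CHT, with MATN2 in Lard and with CHRDL1 and SERPINF1 in IR/CHT, beside 19.4%, 2.61% and 34.3% of all genes called. INMT, MATN2 and SORCS1 were lower there in CHT against Lard, beside 9.35%, and APOD stood 1.42 higher. C1R and C1S were higher in the IR/CHT pulmonary valve too, where 0.706% of genes were called. In the mitral valve SVEP1 fell by 0.80 in IR/CHT (SE 0.17, edgeR adjusted p = 0.00124), with HIPK1 and MATN2 also lower beside 17.7% of all genes called, and APOD stood 2.73 above Ctrl in the same comparison. In the tricuspid valve SVEP1 was at -0.62 in CHT (SE 0.20, edgeR adjusted p = 0.475) and -0.62 in IR/CHT (SE 0.19, edgeR adjusted p = 0.266), without passing the test.

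The 10 genes whose group means ran closest to those of APOD were LIPG at an r of 0.85 over the 20 groups, C1S at 0.83, ADTRP and C1R at 0.77, UMOD at 0.75, DCTD and NR1H3 at 0.74, GFRA2 and HSD11B2 at 0.72 and ADAMTSL1 at 0.71. These genes were picked for following the groups, so levels alone are given for them here. C1S and C1R were also among the 10 genes picked within groups, and their calls above are those of that list. The 5th and 95th percentile over all genes were -0.39 and 0.45. In the aorta C1S stood at 192.8 ± 81.6 CPM in Ctrl, 497 ± 93.1 CPM in CHT and 519 ± 72.0 CPM in IR/CHT, and in the pulmonary valve at 248.6 ± 84.2, 448 ± 92.0 and 444 ± 99.4 CPM. NR1H3, the oxysterol receptor LXR alpha, was at 4.04 ± 1.46 CPM in Ctrl and 14.3 ± 5.92 CPM in IR/CHT pulmonary valves. LIPG was at 0.0393 ± 0.0684 CPM in Ctrl and 2.29 ± 1.99 CPM in IR/CHT tricuspid valves. Within groups, r with APOD was 0.27 for LIPG and 0.10 for NR1H3, and of these 10 genes C1S and C1R were the ones at an r over 0.4 on both measures.

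**Figure D5:**
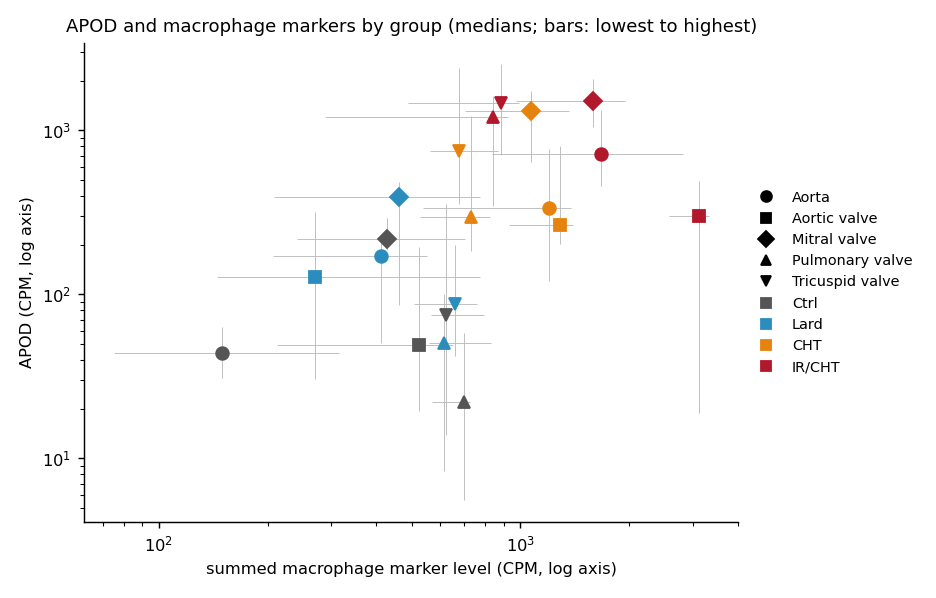
Median APOD level against the median summed level of 14 macrophage markers in the 20 groups, both in CPM on log axes, with bars from the lowest to the highest library. The left-sided tissues move right and up from Ctrl to IR/CHT, and the pulmonary and tricuspid valves move up and, to a smaller extent, right, with macrophage medians of 700 and 624 CPM in Ctrl and 838 and 883 CPM in IR/CHT.

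Cell type markers ran with APOD weakly within groups. The median r was 0.17 over 18 fibroblast markers, from 0.11 for COL1A1 to 0.24 for COL14A1, and all 18 were above 0. It was 0.18 over 9 Schwann cell and glia markers with 8 above 0, although their summed level had an r of 0.06 (rho -0.0044), and 0.12 over 14 macrophage markers with 13 above 0. It was -0.07 for smooth muscle, -0.08 for heart muscle, 0.04 for endothelial cells, 0.12 for adipocytes, -0.11 for lymphocytes and -0.06 for red blood cells. Over the 20 group means the median r of the macrophage markers was 0.52 and that of the fibroblast markers 0.02. The part of these cells in the APOD level was not tested.

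Genes around APOD's known functions were read as 7 lists, in which 69 of the 119 genes named carry a symbol in the tables. Among those tested in the aorta, 22 of 57 were called in CHT against Ctrl (15 higher, 7 lower), 4 in Lard (all higher), 31 in IR/CHT (22 higher, 9 lower), 1 in IR/CHT against CHT and 15 in CHT against Lard, beside 19.4%, 2.61%, 34.3%, 0.596% and 9.35% of all genes. The 59 tested in the aortic valve gave 19, 0, 35, 21 and 15 calls, beside 11.9%, 0.234%, 42.8%, 19.7% and 7.94%. The 57 of the mitral valve gave 9, 0, 22, 0 and 10, beside 5.62%, 0.0%, 17.7%, 0.189% and 6.05%, and the 55 of the pulmonary valve 1, 0, 2, 1 and 1, beside 0.159%, 0.0%, 0.706%, 0.0761% and 0.152%. None of the 56 tested in the tricuspid valve was called by edgeR in the 5 comparisons, in which 4 to 8 had an unadjusted p under 0.05 and DESeq2 called 0 or 1. For the other counts of 0, an unadjusted p under 0.05 was reached by 7 genes in the aortic, 0 in the mitral and 1 in the pulmonary valve in Lard against Ctrl, and by 17 in the mitral valve in IR/CHT against CHT, where DESeq2 called 0, 0, 0 and 1. The median log2 fold change over the lists was between -0.09 and 0.34, beside -0.06 to 0.04 over all genes.

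Some of the genes that release and convert arachidonic acid, a ligand of APOD, were higher in the left-sided tissues of cholesterol-fed rabbits. Of 13 tested in the aorta, 8 were higher in CHT, 3 in Lard and 7 in IR/CHT, where 19.4%, 2.61% and 34.3% of all genes were called in either direction. In CHT 4 of 13 were higher in the aortic valve and 3 of 12 in the mitral valve, beside 11.9% and 5.62%. PLA2G7, the phospholipase that hydrolyses oxidised phospholipids, rose by 2.70 in CHT on the log2 scale (SE 0.27, edgeR adjusted p = 3.54e-08), and TBXAS1, thromboxane synthase, by 3.14 (SE 0.39, edgeR adjusted p = 9.43e-07). ALOX5AP, the partner of 5-lipoxygenase, rose by 1.91 in CHT and by 1.32 in Lard (SE 0.28, edgeR adjusted p = 0.00979). In IR/CHT against Ctrl 6 were higher and 3 lower of 13 in the aortic valve, and 6 higher of 12 in the mitral valve, beside 42.8% and 17.7%, with CYP2J1, an epoxygenase, at 2.17 and 1.12. In the pulmonary valve TBXAS1 was the single call of 12 genes tested, at 1.24 in IR/CHT (SE 0.22, edgeR adjusted p = 0.00264), where 0.706% of all genes were called. TBXAS1, ALOX5AP and PLA2G7 are also expressed by macrophages, whose markers moved with them in the left-sided tissues.

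Of 15 genes of steroid and vitamin D receptors and their response genes tested in the aorta, 6 were lower and 0 higher in CHT against Ctrl (19.4% of all genes called), and 4 were higher and 4 lower in IR/CHT (34.3%). In the aortic valve 1 was higher and 4 lower in CHT (11.9%), and 3 higher and 6 lower in IR/CHT (42.8%). Those lower in the CHT aorta included KLF9 at -1.01 (SE 0.22), ZBTB16 at -1.05 (SE 0.24) and TSC22D3, the glucocorticoid-induced leucine zipper, at -0.76 (SE 0.18), with edgeR adjusted p = 0.00117, 0.00144 and 0.00200. In the mitral valve TSC22D3 fell by 0.97 (SE 0.12, edgeR adjusted p = 4.62e-06), and in the pulmonary valve by 0.70 (SE 0.13, edgeR adjusted p = 0.0106), from 267.95 ± 48.7 to 168.6 ± 19.3 CPM. Against Lard, which shares vitamin D2, TSC22D3 in CHT fell by 0.72 in the pulmonary, 0.92 in the mitral and 0.81 in the aortic valve and by 1.04 in the aorta. VDR, the vitamin D receptor, was 2.24 higher in the IR/CHT aorta (SE 0.66, edgeR adjusted p = 0.00630). FKBP5, a glucocorticoid-responsive chaperone, was the 1 list gene called in the aorta in IR/CHT against CHT, at 1.32 (SE 0.32, edgeR adjusted p = 0.0452), and ZBTB16 that of the pulmonary valve, at 1.76 (SE 0.34, edgeR adjusted p = 0.0349). Both calls were lost with no filter on low counts. No list gene was called in the aorta when any 1 of 8 aorta libraries was left out, or in the pulmonary valve when any 1 of 7 of its libraries was.

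Genes of lipid peroxide defence were led by HMOX1, the heme-degrading oxygenase. It rose by 2.97 (SE 0.41, edgeR adjusted p = 3.89e-06) in the CHT aorta, by 1.37 (SE 0.31, edgeR adjusted p = 0.00574) in the CHT mitral valve, by 3.60 (SE 0.28, edgeR adjusted p = 5.53e-11) in the IR/CHT aortic valve and by 1.53 (SE 0.35, edgeR adjusted p = 0.0328) in the IR/CHT pulmonary valve. HMOX1 and TBXAS1 were the 2 list genes called in that last comparison, and the count fell to 1 when any 1 of 6 libraries was left out. Of 14 genes, 5 were higher in CHT and 6 higher and 1 lower in IR/CHT in the aortic valve, beside 11.9% and 42.8% of all genes called. In the aorta 2 were higher in CHT, and 4 higher and 3 lower in IR/CHT, beside 19.4% and 34.3%. The lower one of the aortic valve was PON3, a lactonase carried by high-density lipoprotein, at -3.41 (SE 0.91, edgeR adjusted p = 0.00305).

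Of 8 growth arrest and senescence genes tested in the left-sided tissues, 4 were higher in CHT and 4 higher and 2 lower in IR/CHT in the aortic valve, and 2 and 4 were higher in the mitral valve, beside 11.9%, 42.8%, 5.62% and 17.7% of all genes called. In the aorta 3 were higher and 1 lower in CHT and 4 higher in IR/CHT, beside 19.4% and 34.3%. GLB1, the lysosomal beta-galactosidase, rose by 2.29 (SE 0.23, edgeR adjusted p = 2.76e-08) in the CHT aorta. LMNB1, a nuclear lamina protein that is lost in senescent cells, rose by 1.46 there (SE 0.23), so the list moved in no single sense. IGFBP5, a secreted binding protein of insulin-like growth factors, fell by 1.42 in the IR/CHT aortic valve (SE 0.21, edgeR adjusted p = 4.66e-06). Within groups, IGFBP5 had the highest r with APOD of its list, at 0.29.

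Among apolipoproteins and APOD's partners, APOC1 stood at 0.101 ± 0.182 CPM in Ctrl, 1.17 ± 1.11 CPM in CHT and 2.33 ± 1.82 CPM in IR/CHT aortas. CLU, the chaperone apolipoprotein J, rose in the aorta by 1.26 in CHT (SE 0.24, edgeR adjusted p = 0.000285) and by 1.34 in IR/CHT, and also in Lard (edgeR adjusted p = 0.0178), but fell in IR/CHT by 0.99 in the aortic and by 0.82 in the mitral valve. LCAT, the plasma enzyme that esterifies cholesterol and binds APOD, fell in the IR/CHT aortic valve by 1.92 (SE 0.29, edgeR adjusted p = 4.85e-06), by 0.86 in the mitral valve and by 0.63 in the aorta. SCARB1, the high-density lipoprotein receptor, was 1.14 higher in the IR/CHT aorta (SE 0.36, edgeR adjusted p = 0.0102). LEPR, a reported binding partner, ran with APOD at an r of 0.01 within groups, and BSG, a reported receptor, was not matched by symbol. Of the lipocalin family, 2 of 15 genes named, APOM and LCN2, were measured over all libraries, at an r of 0.13 and -0.04.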

How the data were processed

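RNA was sequenced from 134 libraries of the aorta and the 4 heart valves of 27 rabbits. The authors deposited gene counts, not normalised, as 2 plates of libraries. Per the labels, reads were converted with bcl2fastq 2.20 and the genome build was OryCun2.0. The authors report processing with nf-core/rnaseq 1.4.2 and Ensembl release 99 genes. The library kit was stranded. The authors report that the pipeline ran at its defaults apart from trimming settings, and its default counting does not use the strand. Reads of overlapping or antisense genes may therefore not be told apart, which the deposited counts themselves cannot show. No genome of that build was used here, so no position or sequence is given.

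Both tables were joined on gene ID, and groups came from the sample labels. Column names give the rabbit, so replicates are separate animals. CPM used TMM-scaled totals over all libraries. Fold changes, and the two-sided quasi-likelihood test for genes other than APOD, came from 1 edgeR 4.0.16 fit per tissue with all 4 treatments (filterByExpr, TMM, robust, R 4.3.3). A gene was called at a Benjamini-Hochberg adjusted p under 0.05 and a fold change over 1.5. A marker sum is the summed CPM of a marker list. Correlations used log2 CPM with a prior count of 2 over 17030 genes, after removal of the 20 group means. The fit was tested on simulated data with known changes.

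The gene and all lists were chosen with earlier results of these data known. The text names APOD, the 10 genes with a symbol of highest and the 5 of lowest correlation within groups, the 10 of highest correlation over group means, up to 3 called genes of smallest p per list and comparison, BSG and LEPR, and 10 set markers, among them CD68 and DCN. Results for some genes that this rule names are not reported here. Genes named beyond that rule, such as VDR, PON3, IGFBP5, COL1A1, COL14A1, TIMD4, MMP12 and U1, were chosen after their values were seen.

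Alternatives were raw totals, DESeq2 1.42.0, no filter on low counts, a prior count of 0.5, plate as a covariate, each plate alone and each library left out in turn. Leaving out right-sided valve libraries with an endothelial marker sum under 500 CPM or a smooth muscle sum over 10000 CPM was an alternative chosen after seeing the data.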

Additional observations from a re-analysis of the deposited data

Results flagged for a closer look

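APOD in 3 of 20 groups had 1 library whose gap to the nearest other, over the range of its group, was above Dixon's 95% value, which chance passes in about 1 of 20 groups. APOD was chosen on these levels, so this is a description. In the Lard mitral valve, library L191 of rabbit L09440 lay at 85.5 CPM, below the other 6 libraries. In the CHT pulmonary valve, library L188 lay at 1219 CPM, and in the CHT tricuspid valve, library L189 lay at 2406 CPM, both above their groups. These last libraries came from the same rabbit, L09405, whose aorta, aortic valve and mitral valve were also the highest of the CHT group, at 766, 798 and 1749 CPM. Without L191 the log2 fold change of Lard against Ctrl in the mitral valve was 0.79 in place of 0.62. Without L188, that of CHT against Ctrl in the pulmonary valve was 3.47 in place of 4.07. Without L189, CHT against Ctrl in the tricuspid valve was 2.30 in place of 2.82 and IR/CHT against CHT 1.25 in place of 0.73.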

How the results depend on the processing

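Among the alternative values of the APOD fold changes, 459 moved by less than the spread between replicates, 7 moved by more and 5 reversed. Of the 459, 331 left out 1 library, which can shift a group mean only little beside the spread of single libraries. On plate 1 alone 16 values stayed, 1 moved and 3 reversed, and on plate 2 alone 8 stayed and 6 moved. In the pulmonary valve, CHT against Lard was 4.42 on plate 1 alone and 1.48 on plate 2 alone, Lard against Ctrl -0.30 (reversed) and 2.73, and on plate 2 alone IR/CHT against CHT was 2.91 and IR/CHT against Ctrl 7.12. In the tricuspid valve, CHT against Ctrl was 1.38 on plate 2 alone, and IR/CHT against CHT -0.19 on plate 1 alone (reversed) and 2.01 on plate 2 alone. Lard against Ctrl there reversed to 0.24 on plate 1 alone and to 0.16 without the right-sided libraries that stood apart, and ran from -0.65 to 0.16 with 1 library left out at a time, above 0 without L168. The cause was not tested. With plate as a covariate all 20 values of the valves moved by less than the spread. No alternative APOD mean moved beyond the spread. Most of these alternatives left out 1 library, which cannot shift a mean beyond the SD of its group, so only the others could have moved. Of the correlations 58 stayed and 17 moved, with none reversed.

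Counts of list genes called moved more. With DESeq2 they were 6 in place of 1 for IR/CHT against CHT in both the aorta and the pulmonary valve and 1 in place of 0 in the mitral valve, and CHT against Ctrl gave 2 in the pulmonary valve. In the tricuspid valve DESeq2 called 1 each in CHT against Lard, IR/CHT against CHT and IR/CHT against Ctrl. With no filter on low counts, IR/CHT against CHT gave 0 in the aorta and the pulmonary valve. Single plates hold fewer libraries. On plate 1 alone, CHT against Ctrl gave 11 and CHT against Lard 8 in the aortic valve, CHT against Lard 5 in the mitral and 0 in the pulmonary valve, and IR/CHT against Ctrl 1 in the pulmonary and 3 in the tricuspid valve. On plate 2 alone, IR/CHT against Ctrl gave 22 in the aortic, 7 in the mitral and 0 in the pulmonary valve, and the pulmonary valve gave 0 in CHT against Ctrl, CHT against Lard and IR/CHT against CHT. Without the right-sided libraries that stood apart, IR/CHT against CHT gave 0 in the pulmonary valve, and CHT against Lard and IR/CHT against Ctrl gave 1 in the tricuspid valve. With 1 library left out at a time, the counts ran from 0 to 5 for IR/CHT against CHT in the aorta (5 without L579, 2 without L559, 0 without L560, L561, L572, L574, L565, L566, L567 or L582). In the mitral valve they ran from 5 to 12 for CHT against Ctrl and from 6 to 12 for CHT against Lard, lowest without L266 in both, and from 0 to 4 for IR/CHT against CHT (4 without L175, 2 without L157, 1 without L266). In the pulmonary valve they ran from 1 to 2 for CHT against Ctrl (2 without L246), from 0 to 1 for IR/CHT against CHT (0 without L171, L176, L188, L154, L267, L549 or L230) and from 1 to 2 for IR/CHT against Ctrl (1 without L167, L176, L153, L200, L263 or L242). In the tricuspid valve IR/CHT against Ctrl ran from 0 to 8 (8 without L168).

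Over all genes, edgeR and DESeq2 called 386 and 692 in Lard against Ctrl in the aorta (and 88 and 6.60 times as many in IR/CHT against CHT), 36 and 118 in Lard against Ctrl in the aortic valve, and 29 and 149 in IR/CHT against CHT in the mitral valve. For the pulmonary valve they called 23 and 115 in CHT against Ctrl, 102 and 318 in IR/CHT against Ctrl, 11 and 466 in IR/CHT against CHT and 22 and 140 in CHT against Lard, and in the tricuspid valve 24 and 48, 34 and 97, 0 and 9, and 13 and 26. With 1 library left out at a time, the calls over all genes ran from 2 (without L560) to 661 (without L579) for IR/CHT against CHT in the aorta, from 0 (without L173) to 50 for Lard against Ctrl in the aortic valve and from 6 (without L170) to 6.41 times the 29 of all libraries (without L175) for IR/CHT against CHT in the mitral valve. Lard against Ctrl fell to 215 in the aorta without L575. The pulmonary valve reached 67 for CHT against Lard without L250, ran from 0 (without L171) to 24 (without L180) for IR/CHT against CHT, and fell to 50 without L176 for IR/CHT against Ctrl. The tricuspid valve fell to 13 without L160 for CHT against Ctrl and to 5 without L189 for CHT against Lard. No paired analysis was possible because each rabbit had 1 treatment, so that only tissues, not treatments, can be paired by rabbit.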
